A study of Mus musculus with 18 samples.

Results

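Insulin signalling and glucose transport were examined at the level of mRNA in 3 adipose preparations of HFD mice through 10 genes, of 52093 gene symbols measured. The 10 genes were chosen by symbol: the insulin receptor Insr, the insulin receptor substrates Irs1 and Irs2, the PI3K regulatory subunit Pik3r1, the kinases Akt1 and Akt2, the Akt substrates Tbc1d4 and Foxo1, the adaptor Grb10 and the glucose transporter Slc2a4. Each had 1 row in the deposited tables. All mice were male and wild type. Their strain is C57BL/6 in the strain label and the methods of the study, C57BL/6J in the protocol and C57BL/6NTac in the study's supplement. The substrain is thus uncertain. Their diet for 12 weeks had been high in fat (HFD), and the study's supplement gives their age as 16 weeks. The methods, for mice of the study in general, give a switch to the HFD at 6 weeks of age. These statements do not match, so the age is uncertain. RNA came from mature adipocytes of inguinal white fat (iWAT, 6 libraries), mature adipocytes of epididymal white fat (eWAT, 6 libraries) and brown fat (BAT, 6 libraries), and iWAT and eWAT stand for these adipocytes from here on. White adipocytes were the floating layer of a collagenase digest, which other cells can contaminate, whereas BAT was frozen as whole tissue with all its cell types. Type of fat and way of preparation thus cannot be told apart in any comparison with BAT. One field of the labels gives regular chow for all 18 libraries, but their titles, protocol and design text give the HFD, and they were treated as HFD libraries. No lean or chow-fed mice were analysed here.

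In adipocytes, insulin binds the insulin receptor, a tyrosine kinase that phosphorylates the insulin receptor substrates. These recruit PI3K, whose lipid product brings Akt to the membrane. Akt phosphorylates Tbc1d4 (AS160), which releases vesicles that carry Slc2a4 (GLUT4) to the cell surface, and Foxo1, which then leaves the nucleus. Fat is one of the tissues in which insulin controls glucose entry through GLUT4. All of this is regulated mainly through phosphorylation and protein location, which mRNA levels do not measure.

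Reads on the rows of the tables numbered 24655056 to 42518483 per library, and the 10 genes had between 74 reads (Irs2 in BAT) and 10706 reads (Pik3r1 in iWAT) in a library. RPKM values, given as mean ± SD of 6 libraries, divide reads by transcript length and by a total per library. In BAT, the 10 most abundant rows held 43.6% to 54.3% of the reads, against 9.94% to 20.5% in white adipocytes, so that other genes have lower RPKM in BAT. Tests were therefore run with TMM scaling, which sets the typical gene equal between tissues. Under total counts alone, the log2 fold change of the median gene moved from 0.01 to 0.87 for iWAT against BAT and from −0.02 to 0.89 for eWAT against BAT. Where this turned the direction of a difference from BAT, it is stated with the difference. Libraries labelled BAT carried a marker of brown adipocytes. Ucp1, the uncoupling protein of brown adipocytes, had 1858 ± 237 RPKM in BAT, 2.26 ± 0.591 in iWAT and 0.261 ± 0.0844 in eWAT.

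The libraries also differed in the levels of cell type markers. The geometric mean RPKM of 6 adipocyte markers was 360.7 to 543 in iWAT, 62.2 to 227.7 in eWAT (lowest in libraries 3 and 1) and 73.2 to 87.9 in BAT. The markers did not all differ from BAT in the same direction. Retn and Lep had means of 2.52 and 64.8 RPKM in BAT, against 173.6 and 839.5 in iWAT. With TMM scaling, 4 of the 6 markers were higher in iWAT than in BAT, and 1 (Lipe) was higher in BAT. Against eWAT, 2 were higher in eWAT and 2 (Plin1 and Lipe) in BAT. The summed RPKM of 8 macrophage markers was 378.3 to 683.7 in iWAT, 1693 to 2396 in eWAT and 9.28 to 15.7 in BAT. Skeletal muscle markers summed to 1.77 in BAT library 2 and 19.3 in library 17, but to between 71.3 and 123.8 in the other 4 BAT libraries. In such mixtures, fewer cells of a type and less RNA per cell cannot be told apart, and the part of these cells in the differences given here was not tested. The labels also place BAT on other sequencing lanes than the white libraries, and an effect of lane on BAT cannot be told apart from one of the tissue.

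Both insulin receptor substrates are shown by their promoters, because their mRNAs ranked the tissues differently. RefSeq windows of 250 bases before to 50 bases after the start were given for 8 of the 10 genes (build GRCm38.p6), not for Insr and Slc2a4. Capitals mark every match to CAAAACA (the core of insulin response elements, here as TGTTTTG on the other strand) and to GGGCGG (the GC box bound by Sp1). Both strands were searched for these and for GTAAACA, a FOXO site, which neither window holds. Both sequences run 5′ to 3′ on the minus strand, and the same bases lie in NCBIM37 at chr1:82287965-82288264 for Irs1 and at chr8:11008880-11009179 for Irs2.
Irs1, chr1:82291390-82291689: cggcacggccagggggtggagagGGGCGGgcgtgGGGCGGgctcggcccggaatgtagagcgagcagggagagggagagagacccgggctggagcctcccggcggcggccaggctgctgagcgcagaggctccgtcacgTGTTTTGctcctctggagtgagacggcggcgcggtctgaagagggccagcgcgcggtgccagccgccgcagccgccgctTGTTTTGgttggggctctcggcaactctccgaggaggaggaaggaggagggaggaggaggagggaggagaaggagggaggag
Irs2, chr8:11008880-11009179: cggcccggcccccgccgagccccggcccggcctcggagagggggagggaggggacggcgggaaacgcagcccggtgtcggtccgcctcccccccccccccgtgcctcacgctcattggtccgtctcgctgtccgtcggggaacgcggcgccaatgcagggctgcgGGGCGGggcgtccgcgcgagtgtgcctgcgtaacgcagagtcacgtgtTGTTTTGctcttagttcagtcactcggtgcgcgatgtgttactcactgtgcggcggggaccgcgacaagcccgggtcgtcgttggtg
The Irs1 window had 2 matches to the insulin response core, with first bases at −111 and −32 from the start, and 2 GC boxes. The Irs2 window had 1 such match at −37 and 1 GC box at −85. These positions count from the RefSeq starts. In NCBIM37, the measured Irs1 row starts at 82288014, inside its window. The measured Irs2 row starts at 11008458, downstream of its whole window, so its positions are not distances from the start of that row. Of all 32851 promoter windows in the table, 6.28% hold the insulin response core, 35.7% the GC box and 3.65% the FOXO site. These matches describe letters, not binding. Both windows were rich in G and C (71.3% for Irs1 and 72.0% for Irs2, against a median of 52.7% over all windows).

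**Figure D1:**
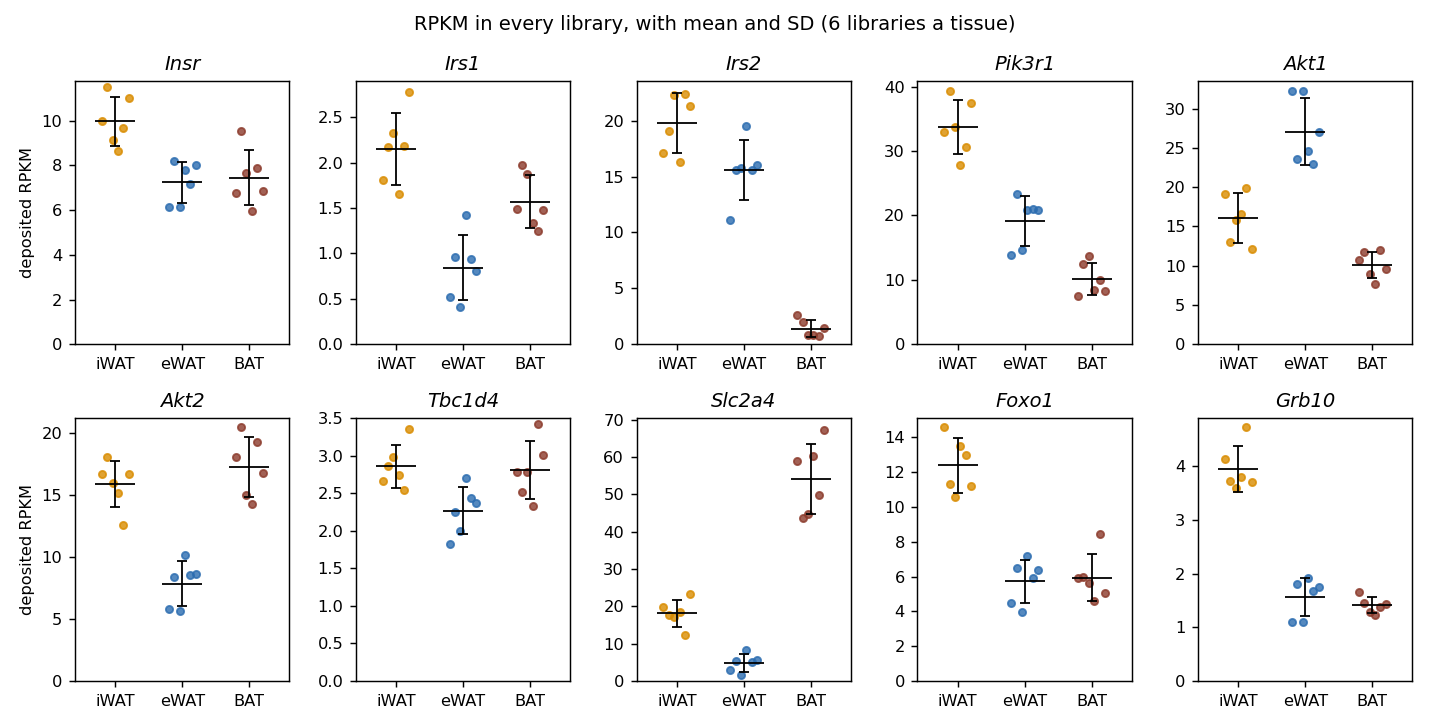
Deposited RPKM of the 10 genes in each of the 18 libraries (points; y axes start at 0 and differ between panels), with the mean and SD of 6 libraries in black. Slc2a4 stood highest in BAT (43.7 to 67.2), whereas Irs2 was at most 2.57 in BAT and at least 11.1 in white adipocytes.

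At the top of the pathway, the receptor differed little between tissues. Insr (chromosome 8, 3150922 to 3279617, minus strand, NCBIM37) is the tyrosine kinase that binds insulin. Its lowest, median and highest RPKM were 8.64, 9.81 and 11.5 in iWAT, 6.13, 7.49 and 8.18 in eWAT and 5.95, 7.25 and 9.52 in BAT. All iWAT libraries lay above all eWAT libraries, while BAT overlapped both white depots on this scale. Insr was 1.39-fold higher in iWAT than in eWAT (log2 fold change 0.47 ± 0.10 SE, edgeR adjusted p = 0.0013). Relative to BAT, the log2 fold change was −0.18 ± 0.10 in iWAT (edgeR adjusted p = 0.11) and −0.63 ± 0.10 in eWAT (edgeR adjusted p = 2.8e-05). Under total counts both turned positive, at 0.67 and 0.28, so no direction between BAT and white adipocytes is given for Insr.

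Irs1 and Irs2 couple the receptor to PI3K. Irs1 (chromosome 1, 82229676 to 82288014, minus strand) had a lowest, median and highest RPKM of 1.65, 2.17 and 2.78 in iWAT, 0.411, 0.873 and 1.42 in eWAT and 1.25, 1.48 and 1.97 in BAT. The white depots did not overlap, and Irs1 was 2.57-fold higher in iWAT than in eWAT (log2 fold change 1.36 ± 0.25 SE, edgeR adjusted p = 0.00037). It was also higher in BAT than in eWAT (log2 fold change −1.49 ± 0.24 for eWAT against BAT, edgeR adjusted p = 2.9e-05). The difference between iWAT and BAT did not pass the test (log2 fold change −0.14 ± 0.14, edgeR adjusted p = 0.37) and was 0.71 under total counts. A row on the opposite strand at the 3′ end of Irs1 held 37.3% to 65.6% as many reads as Irs1. Since it is not stated whether counting used strand, reads of the pair cannot be told apart.

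Irs2 (chromosome 8, 10986961 to 11008458, minus strand) showed the largest difference between white and brown fat among the 10 genes in the direction of white fat. Its lowest, median and highest RPKM were 16.3, 20.2 and 22.4 in iWAT, 11.1, 15.7 and 19.5 in eWAT and 0.698, 1.14 and 2.57 in BAT. White and brown libraries were far apart, while the white depots overlapped. The log2 fold change against BAT was 3.22 ± 0.26 in iWAT (9.30-fold, edgeR adjusted p = 1.9e-08) and 2.90 ± 0.27 in eWAT (7.44-fold, edgeR adjusted p = 7.4e-08). Between the white depots it was 0.35 ± 0.13 (edgeR adjusted p = 0.024), and this call was lost without iWAT library 3 (log2 fold change 0.31, edgeR adjusted p = 0.053), without iWAT library 16 (0.32, adjusted p = 0.051), without eWAT libraries 1 and 3 (0.24, adjusted p = 0.083) and under total counts (0.27, adjusted p = 0.065).

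The ratio of Irs2 to Irs1 RPKM was 9.27 ± 0.929 in iWAT, 21.0 ± 8.95 in eWAT and 0.889 ± 0.478 in BAT. The 3 tissues did not overlap, with ranges of 7.65 to 10.3, 13.7 to 38.4 and 0.430 to 1.73. In every white library Irs2 exceeded Irs1 and Irs3. Irs3, a rodent substrate expressed in adipocytes, had 9.82 ± 2.1, 4.25 ± 1.64 and 7.47 ± 1.42 RPKM in iWAT, eWAT and BAT, with a mean in BAT above those of both Irs1 and Irs2.

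Genes induced rapidly by stimuli, such as Phlda1 and Ier5, were among those most like Irs2. Over the 18 libraries, log2 TMM-scaled RPKM of Irs2 was most like that of Phlda1, Ubb and Gm1821 (Pearson r = 0.988, 0.985 and 0.984 across libraries, of all genes with a mean of at least 1 RPKM). With each tissue centred on its own mean, Ier5 and Phlda1 were the most alike (r = 0.856 and 0.855). These libraries share tissue and depth, so the values describe likeness only. A list of 11 immediate early genes (Fos, Fosb, Jun, Junb, Egr1, Atf3, Ier2, Ier3, Zfp36, Dusp1 and Nr4a1), drawn up after this was seen, summed to 2107 to 3621 RPKM in iWAT, 1746 to 2460 in eWAT and 55.2 to 191.3 in BAT. All 11 were higher in both white depots than in BAT, with median log2 fold changes of 4.13 and 4.19. BAT library 1 had the highest level of both Irs2 and these genes within BAT. White fat was digested before RNA extraction and BAT was not, and the part of this step in the level of Irs2 was not tested.

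**Figure D2:**
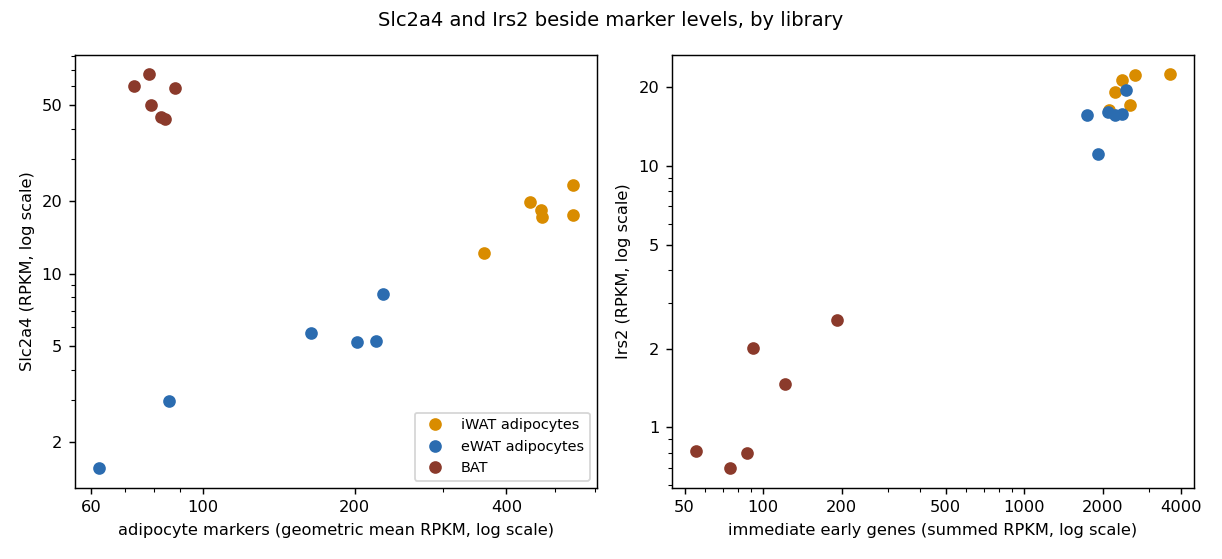
Left: Slc2a4 RPKM against the geometric mean RPKM of 6 adipocyte markers. Right: Irs2 RPKM against the summed RPKM of 11 immediate early genes. Each point is 1 of 18 libraries and all axes are log scales. White adipocyte libraries form a band in which low adipocyte marker levels (62.2 and 85.8 in eWAT libraries 3 and 1) go with low Slc2a4, and BAT lies apart from it. BAT has both the lowest Irs2 and the lowest immediate early level.

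Pik3r1 (chromosome 13, 102450716 to 102538172, minus strand) encodes the regulatory subunits p85α, p55α and p50α of PI3K, which bind phosphorylated Irs proteins. It was the most abundant of the 10 transcripts in iWAT, with a lowest, median and highest RPKM of 27.9, 33.4 and 39.3. The corresponding values were 13.8, 20.9 and 23.3 in eWAT and 7.49, 9.24 and 13.7 in BAT. All 3 tissues were separate on this scale. With TMM scaling, Pik3r1 was 1.78-fold higher in iWAT than in eWAT (log2 fold change 0.83 ± 0.15 SE, edgeR adjusted p = 0.00024). It was also higher in iWAT than in BAT (1.14 ± 0.15, edgeR adjusted p = 5e-06). The difference between eWAT and BAT was 0.33 ± 0.17 (edgeR adjusted p = 0.081). It passed the test without eWAT library 1 (0.41, edgeR adjusted p = 0.03), without eWAT library 3 (0.40, adjusted p = 0.036) and without BAT library 5 (0.44, adjusted p = 0.019), and was 1.24 under total counts.

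Akt1 and Akt2 are paralogous kinases, of which Akt2 is the one chiefly needed for insulin-stimulated glucose uptake. Akt1 (chromosome 12, 113892032 to 113913095, minus strand) was the exception between the white depots. Its lowest, median and highest RPKM were 12.1, 16.2 and 19.9 in iWAT, 23.0, 25.8 and 32.3 in eWAT and 7.63, 10.1 and 12.0 in BAT. Every eWAT library lay above every other library. Akt1 was 1.68-fold higher in eWAT than in iWAT (log2 fold change −0.75 ± 0.12 for iWAT against eWAT, edgeR adjusted p = 0.00012) and 1.80-fold higher in eWAT than in BAT (0.85 ± 0.10, edgeR adjusted p = 1.9e-06). For iWAT against BAT, the log2 fold change was 0.07 ± 0.10 (edgeR adjusted p = 0.57) with TMM scaling, 0.92 under total counts and −0.10 against BAT libraries 2 and 17 alone. A long row for Ahnak2 spans Akt1 on the same strand, and its reads were 39.7% to 59.6% of those of Akt1 in iWAT, 151.7% to 232.7% in eWAT and 5.18% to 9.99% in BAT. How reads under both rows were assigned is not stated, and their part in the level of Akt1 was not tested.

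Akt2 (chromosome 7, 28376571 to 28425856, plus strand) ran the other way. Its lowest, median and highest RPKM were 12.6, 16.4 and 18.1 in iWAT, 5.61, 8.47 and 10.2 in eWAT and 14.3, 17.4 and 20.5 in BAT. The white depots did not overlap, and Akt2 was 2.03-fold higher in iWAT than in eWAT (log2 fold change 1.02 ± 0.15 SE, edgeR adjusted p = 6.9e-05). It was 3.31-fold higher in BAT than in eWAT (log2 fold change −1.73 ± 0.13, edgeR adjusted p = 9.9e-09), in the same direction under total counts. Against iWAT, BAT was higher with TMM scaling (log2 fold change −0.72 ± 0.10, edgeR adjusted p = 6.7e-06) but not under total counts (0.12, adjusted p = 0.35).

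The ratio of Akt2 to Akt1 RPKM does not depend on the scaling of a library. It was 1.03 ± 0.299 in iWAT (0.632 to 1.39), 0.302 ± 0.102 in eWAT (0.174 to 0.414) and 1.73 ± 0.0932 in BAT (1.61 to 1.88), without overlap between tissues. Relative to Akt1, reads of the Ahnak2 row that spans it were most in eWAT and fewest in BAT. Their part in this ratio was not tested.

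**Figure D3:**
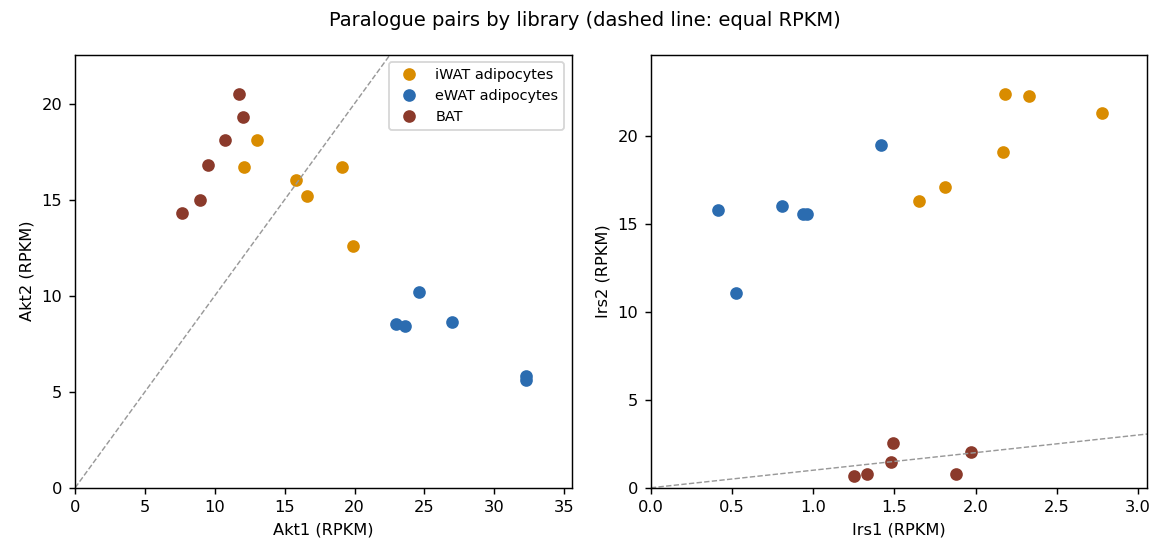
Left: Akt2 against Akt1 RPKM. Right: Irs2 against Irs1 RPKM. Each point is 1 of 18 libraries; the dashed line marks equal levels. All 6 BAT libraries have more Akt2 than Akt1 and all 6 eWAT libraries have less, with iWAT on both sides. All white adipocyte libraries lie far above the line for Irs2, and BAT lies near it.

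Tbc1d4 (chromosome 14, 101841577 to 102008408, minus strand) encodes the Rab GTPase-activating protein AS160. It differed little in RPKM across tissues, with a lowest, median and highest RPKM of 2.54, 2.80 and 3.36 in iWAT, 1.83, 2.31 and 2.71 in eWAT and 2.33, 2.79 and 3.43 in BAT. Each tissue overlapped the others on this scale, but in TMM-scaled RPKM neither white depot overlapped BAT. Tbc1d4 was 1.27-fold higher in iWAT than in eWAT (log2 fold change 0.35 ± 0.11 SE, edgeR adjusted p = 0.012), a call that was lost without eWAT libraries 1 and 3 (0.22, edgeR adjusted p = 0.07). It was lower in both white depots than in BAT with TMM scaling (log2 fold change −0.58 ± 0.10 for iWAT, edgeR adjusted p = 5.9e-05, and −0.90 ± 0.10 for eWAT, adjusted p = 6e-07), but total counts gave 0.27 and 0.01. Its relative Tbc1d1 ran opposite between the white depots (log2 fold change −0.89 ± 0.12, edgeR adjusted p = 3.7e-05).

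Slc2a4 (chromosome 11, 69747786 to 69761692, minus strand) had the widest range of RPKM of the 10 genes over the 18 libraries. It encodes GLUT4, the transporter that insulin brings to the surface of fat and muscle cells. Its lowest, median and highest RPKM were 12.2, 18 and 23.3 in iWAT, 1.56, 5.22 and 8.25 in eWAT and 43.7, 54.4 and 67.2 in BAT. No library of one tissue overlapped those of another. Slc2a4 was 3.79-fold higher in iWAT than in eWAT (log2 fold change 1.92 ± 0.31 SE, edgeR adjusted p = 0.00013). Relative to BAT, it was lower in iWAT (log2 fold change −2.19 ± 0.17, edgeR adjusted p = 1.1e-08) and in eWAT (−4.10 ± 0.32, edgeR adjusted p = 1.1e-08), in the same direction under total counts. Against BAT libraries 2 and 17 alone, which had the fewest muscle transcripts, the log2 fold change was −1.90 in iWAT (edgeR adjusted p = 1.2e-05) and −3.83 in eWAT (adjusted p = 2.6e-05). Skeletal muscle also expresses Slc2a4. The row reaches beyond the GENCODE gene, which covers 40.6% of it, and an overlapping row of Ybx2, on the other strand, held at most 9.81% as many reads. Over the 18 libraries, AK138647, Kcnk3 and Agpat2 were the genes most like Slc2a4 (Pearson r = 0.993, 0.992 and 0.992 across libraries).

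Within the white libraries, low Slc2a4 went with low adipocyte markers. eWAT libraries 3 and 1, with the lowest marker levels, had the lowest Slc2a4 (1.56 and 2.96 RPKM), and without them the log2 fold change of iWAT against eWAT was 1.57 (edgeR adjusted p = 2.8e-05). Per 1000 RPKM of the adipocyte marker level, Slc2a4 was 32.4 to 44.7 in iWAT and 23.8 to 36.2 in eWAT, and the depots overlapped. Expressed in the same way, 9 of the 10 genes had a higher mean in eWAT, where 97.0% of all genes tested did, and Slc2a4 was the exception. In 6 of the 10 every eWAT library lay above every iWAT library, where the background was 74.5%. For Akt1, the mean per 1000 RPKM of marker level was 35.6 in iWAT and 232 in eWAT, and for Akt2 it was 33.9 and 55.9. The means of Insr, Irs1, Irs2, Pik3r1, Akt2, Tbc1d4, Foxo1 and Grb10, higher in iWAT in RPKM, were thus higher in eWAT per marker level. So were those of nearly all genes. For Irs1, Foxo1 and Grb10, the libraries of both depots overlapped on this measure. The marker level itself includes Lep and Retn, which vary with the type and size of adipocytes.

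Slc2a4 was set beside other genes of the Slc2a family, some of which carry fructose or myo-inositol, with RPKM summed over 11 genes. It made up 46.9 ± 6.28% of the sum in iWAT, 13.7 ± 6.02% in eWAT and 79.7 ± 3.36% in BAT. Slc2a1 (GLUT1), which transports glucose without insulin, made up 19.0 ± 4.74%, 54.5 ± 7.14% and 2.25 ± 0.679% in the same order. The ratio of Slc2a4 to Slc2a1 RPKM was 2.62 ± 0.780, 0.265 ± 0.137 and 37.6 ± 9.50, with no overlap between tissues. Slc2a1 was 2.62-fold higher in eWAT than in iWAT (log2 fold change −1.39 ± 0.13, edgeR adjusted p = 1.5e-06). Macrophages, whose markers were highest in the eWAT libraries, also express Slc2a1.

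Slc2a5, a fructose transporter, was detected chiefly in BAT, at 2.83 to 16.4 RPKM. At most 2 reads were counted in an iWAT library and 4 in an eWAT library. On the TMM-scaled RPKM scale, the mean of BAT was at least 369-fold higher than what 3 reads in an iWAT library would give. This bound covers counting error only.

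**Figure D4:**
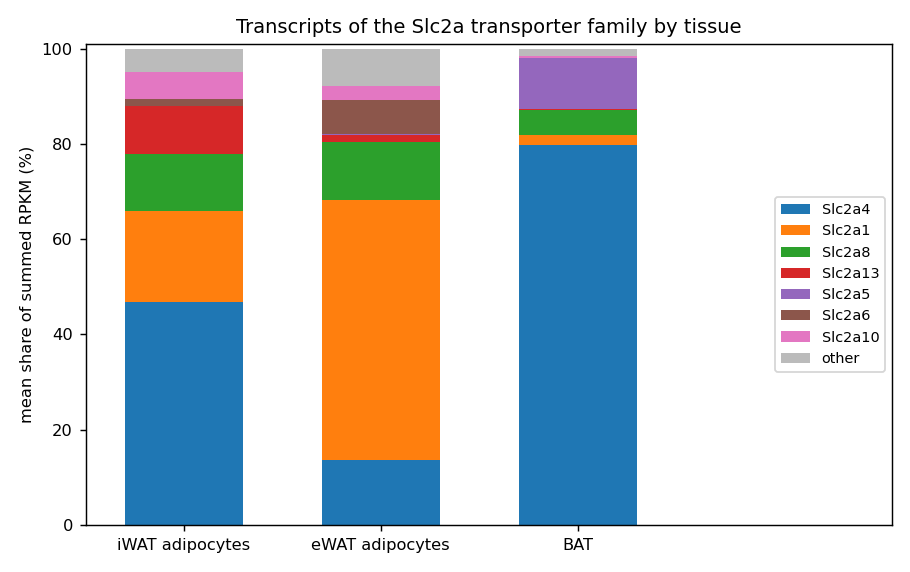
Stacked bars of the mean share (%) of each transporter in the RPKM summed over 11 Slc2a genes, for 6 libraries of each tissue. Slc2a4 leads in iWAT (46.9%) and BAT (79.7%), and Slc2a1 leads in eWAT (54.5%).

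Foxo1 (chromosome 3, 52072259 to 52157143, plus strand), a transcription factor that Akt excludes from the nucleus, had a lowest, median and highest RPKM of 10.6, 12.1 and 14.6 in iWAT, 3.98, 6.16 and 7.18 in eWAT and 4.59, 5.77 and 8.44 in BAT. On this scale, all iWAT libraries lay above all others, and eWAT and BAT overlapped. In TMM-scaled RPKM, iWAT (from 9.5) and BAT (up to 10.8) overlapped, and eWAT (up to 6.44) lay below BAT (from 6.82). Foxo1 was 2.16-fold higher in iWAT than in eWAT (log2 fold change 1.11 ± 0.14 SE, edgeR adjusted p = 1.7e-05). It was higher in iWAT than in BAT (0.45 ± 0.11, edgeR adjusted p = 0.0012), but at 0.23 not past the test against BAT libraries 2 and 17 alone (adjusted p = 0.19). It was lower in eWAT than in BAT with TMM scaling (−0.63 ± 0.15, edgeR adjusted p = 0.00091) but not under total counts (0.27, adjusted p = 0.13).

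Grb10 (chromosome 11, 11830502 to 11938686, minus strand) encodes an adaptor that binds the insulin receptor and inhibits its signalling. Its lowest, median and highest RPKM were 3.59, 3.77 and 4.72 in iWAT, 1.1, 1.71 and 1.91 in eWAT and 1.23, 1.40 and 1.66 in BAT. All iWAT libraries lay above all others, while eWAT and BAT overlapped on this scale but not in TMM-scaled RPKM. Grb10 was 2.54-fold higher in iWAT than in eWAT (log2 fold change 1.35 ± 0.14 SE, edgeR adjusted p = 3.7e-06). With TMM scaling, the difference of iWAT from BAT was smaller (0.88 ± 0.07, edgeR adjusted p = 1.9e-08). In deposited RPKM it was not, with means of 3.95 in iWAT, 1.56 in eWAT and 1.41 in BAT. For eWAT against BAT, −0.44 ± 0.13 with TMM scaling (edgeR adjusted p = 0.0071) became 0.47 under total counts, so no direction is given. A row that overlaps Grb10 held at most 7.38% as many reads, and for Insr, Pik3r1, Tbc1d4 and Foxo1 such rows held at most 3.9%. Grb14, a related inhibitor, was more abundant than Grb10 in every library, with a ratio of 3.24 ± 0.904 in iWAT, 2.19 ± 0.527 in eWAT and 6.12 ± 0.491 in BAT.

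Counted together, all 10 genes passed the test between the white depots, where 68.6% of all 19623 genes tested did. Of these, 9 were higher in iWAT, where the background was 34.1%, and Akt1 was higher in eWAT, where the background was 34.5%. The libraries of both depots did not overlap for 8 of the 10, both in TMM-scaled RPKM, where 43.5% of all genes did not, and in deposited RPKM, where 44.0% did not. The median log2 fold change of the 10 genes was 0.93, beside 0.00 over all genes tested. The 10 genes were chosen with earlier results of these data known. Their counts beside the background, here and against BAT, thus do not measure an unbiased excess. All 6 adipocyte markers were also higher in iWAT (median log2 fold change 1.51), all 8 macrophage markers were lower (median −2.1), and all 6 endothelial markers were higher (median 1.67).

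Against BAT, 7 of the 10 genes passed the test in iWAT, where 75.3% of all genes tested did. Irs2, Pik3r1, Foxo1 and Grb10 were higher in iWAT (background 38.1%), and Akt2, Tbc1d4 and Slc2a4 were higher in BAT (background 37.2%). In eWAT against BAT, 9 of the 10 passed, where 82.5% of all genes tested did: Irs2 and Akt1 were higher in eWAT (background 41.1%) and 7 genes in BAT (background 41.4%). In iWAT against BAT, 6 of the 10 did not overlap, in TMM-scaled RPKM (background 56.4%) and in deposited RPKM (65.3%). In eWAT against BAT, 9 did not overlap in TMM-scaled RPKM (background 66.3%) and 5 in deposited RPKM (68.4%). The shares for iWAT lie near the background, and those for eWAT lie on both sides of it. Under total counts the split became 8 higher in iWAT and 1 in BAT, and 5 higher in eWAT and 3 in BAT, as the share of all calls that were higher in white adipocytes moved from 50.6% to 81.8% and from 49.8% to 76.1%. Of the called differences, those of Irs2 and Slc2a4 from BAT had the same direction under both scalings in both depots, as did Pik3r1, Foxo1 and Grb10 in iWAT and Irs1, Akt1 and Akt2 in eWAT. The 3 comparisons share libraries and are not independent.

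**Figure D5:**
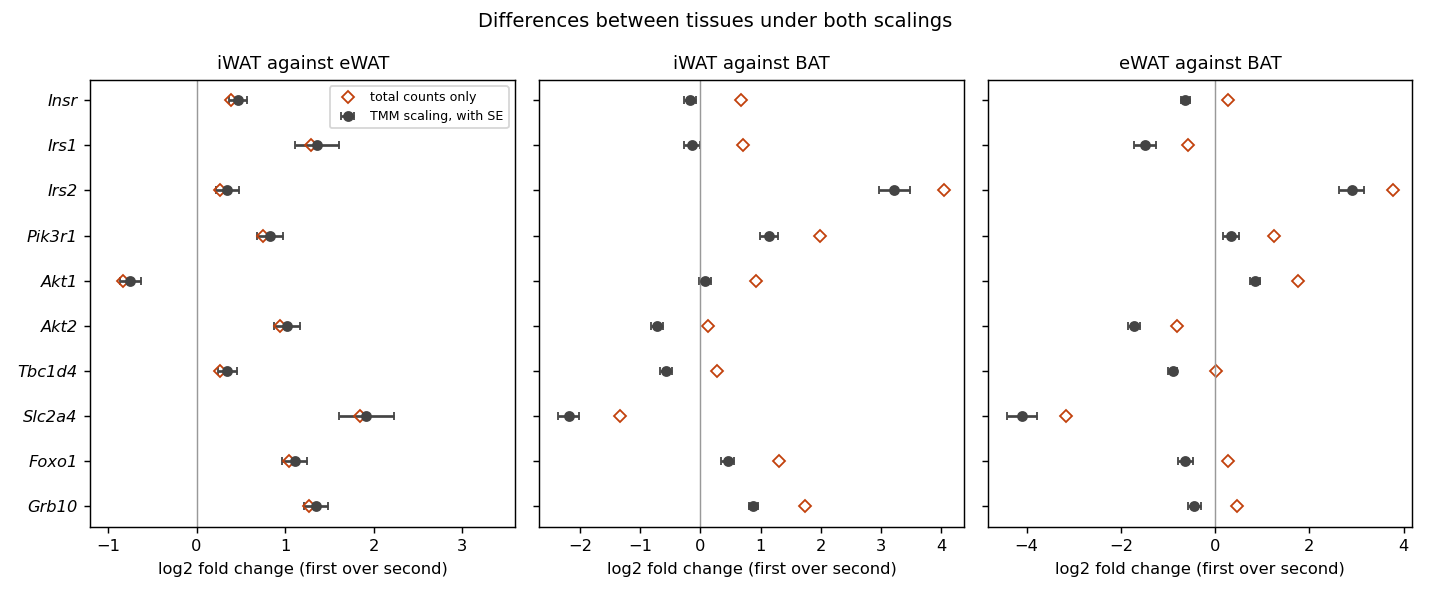
Log2 fold change of the 10 genes in the 3 comparisons (x axes differ between panels). Black points with bars are edgeR estimates with TMM scaling and their SE, and open diamonds are the estimates under total counts alone. Both scalings nearly coincide between the white depots, whereas diamonds lie to the right of the points in both comparisons with BAT.

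Other genes of the pathway were taken from a list of 74 with a row in the tables. Between the white depots, 51 of 70 tested passed the test (background 68.6%), 24 higher in iWAT (34.1%) and 27 higher in eWAT (34.5%), with a median log2 fold change of 0.02. The same background holds for the groups of this list. The corresponding median of the 10 genes was 0.93, and both lists were chosen with earlier results of these data known. Among receptors and adaptors, 4 of 9 were higher in iWAT and 2 in eWAT. Among 6 PI3K subunits, Pik3r3 was higher in iWAT (1.48 ± 0.15, edgeR adjusted p = 3.2e-06) and 2 were higher in eWAT. One of these was Pik3cg, the catalytic subunit of leukocytes, with 1.18 ± 0.283 RPKM in iWAT and 4.92 ± 0.790 in eWAT.

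Of 13 inhibitors and phosphatases, 6 were higher in iWAT (background 34.1%) and 5 in eWAT (34.5%). Grb14 was 3.54-fold higher in iWAT (log2 fold change 1.82 ± 0.28, edgeR adjusted p = 8.1e-05). Enpp1, which can inhibit the insulin receptor, was 4.92-fold higher in eWAT (−2.30 ± 0.16, edgeR adjusted p = 2.3e-07), at 1.08 ± 0.187 RPKM. Inpp5d (SHIP1), a lipid phosphatase of blood cells, was 3.90-fold higher in eWAT. The PDK1, Akt and mTOR complex 2 group had 3 of 6 genes higher in iWAT and 1 higher in eWAT, Akt targets and effectors had 3 and 5 of 10, and GLUT4 vesicle traffic had 4 and 7 of 15. Of 11 other Slc2a transporters and hexokinases tested, 3 were higher in iWAT and 5 in eWAT. Slc2a13, a transporter of myo-inositol, was 7.62-fold higher in iWAT (2.93 ± 0.32, edgeR adjusted p = 5e-06). Slc2a6 and Hk3, both expressed in macrophages, were 4.35-fold and 4.89-fold higher in eWAT.

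Against BAT, 52 of 71 other pathway genes passed the test in iWAT (background 75.3%), 31 higher there (38.1%) and 21 in BAT (37.2%). In eWAT 60 of 71 did (82.5%), 33 higher there (41.1%) and 27 in BAT (41.4%). Under total counts, and with the 10 genes included, 64 were higher in iWAT and 6 in BAT, and 58 were higher in eWAT and 14 in BAT, where 81.8% and 76.1% of all calls were higher in white adipocytes. Socs3, an inhibitor of cytokine and insulin receptor signalling that is induced rapidly by cytokines, had 85.5 ± 20.9 RPKM in iWAT, 54.7 ± 14.8 in eWAT and 0.605 ± 0.164 in BAT. Its log2 fold change was 6.53 ± 0.21 in iWAT (edgeR adjusted p = 9.6e-13) and 5.90 ± 0.22 in eWAT (edgeR adjusted p = 2.6e-12). Socs1 was 11.2-fold higher in iWAT than in BAT. All 8 macrophage markers were also higher in each white depot than in BAT (median log2 fold change 4.72 in iWAT and 6.86 in eWAT), as were the immediate early genes given above.

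BAT had higher levels of Hk2, the hexokinase of insulin-sensitive tissues, with 61.5 ± 14.9 RPKM against 25.0 ± 3.40 in iWAT and 13.9 ± 3.85 in eWAT. The log2 fold change was −1.92 ± 0.18 for iWAT against BAT (edgeR adjusted p = 9.9e-08) and −2.76 ± 0.23 for eWAT (edgeR adjusted p = 1.9e-08). Skeletal muscle expresses Hk2 as well. Sh2b2, an adaptor of the insulin receptor, was 5.13-fold and 5.36-fold higher in BAT than in iWAT and eWAT, and the kinase Mtor was 3.28-fold and 4.04-fold higher. Hk3, Slc2a6, Pik3cg and Inpp5d were higher in eWAT than in BAT, by 141-fold, 35.8-fold, 22-fold and 15.5-fold. Slc2a13 and Hk3 were 27.1-fold and 28.3-fold higher in iWAT than in BAT.

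Within tissues, the coefficient of variation of RPKM over 6 libraries was 10.1% to 20.1% for the 10 genes in iWAT (median 12.7%), 12.7% to 48.2% in eWAT (21.1%) and 10.7% to 55.2% in BAT (17.1%). The most variable were Slc2a4 in eWAT (48.2%) and Irs2 in BAT (55.2%), the latter at 74 to 343 reads. Over the 18 libraries, Akt2 and Slc2a4 were the most alike pair (Pearson r = 0.98 across libraries, and 0.81 with each tissue centred on its mean). When centred, Insr and Pik3r1 were the most alike (r = 0.87, against 0.20 over the 18 libraries). Akt1 ran opposite to Irs1 (r = −0.93 and −0.70 when centred). These values describe libraries that share tissue, depth and cell content.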

How the data were processed

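RNA-seq libraries were made by the authors with a NEBNext Ultra kit and sequenced on a HiSeq instrument; the submitters' processing notes name cutadapt 1.16, HISAT2 2.1.0 and mm9 (NCBIM37). The counting program, annotation and strand setting are not given in the sources used here. The authors deposited read counts per transcript row and the RPKM computed from them. Of several rows of a symbol, that with the highest mean RPKM over the 18 libraries was taken. Labels gave the groups; library numbers are those of the titles.

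Tissues were compared on counts with edgeR 4.0.16 (R 4.3.3; quasi-likelihood, TMM, two-sided, mean count of at least 10, Benjamini-Hochberg over all genes tested, threshold 0.05), on 12 libraries each. Tests were checked on simulated data in which few genes differed, equally in both directions. Such data cannot show how TMM scaling behaves where most genes differ, as they did between these tissues. The SE of an edgeR log2 fold change was derived from its test, as the absolute log2 fold change over the square root of F. TMM-scaled RPKM used reads, transcript length and the TMM-scaled library size. Likeness was Pearson's r of log2(TMM-scaled RPKM + 0.1). Alternatives used DESeq2 1.42.0 and limma 3.58.1 (log2(RPKM + 0.1) or log2(RPKM + 1)). Figures used matplotlib 3.10.9.

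No pair of libraries of a tissue agreed within sampling noise (lowest chi-square over degrees of freedom 14.3). The study gives n = 6 per group, but no source says that each library is 1 mouse, and p-values measure the spread between libraries, which may be technical. Floors cover counting error only.

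The 10 genes and all lists were chosen with earlier results of these data known. Named genes are the 10, 5 called pathway genes by size of change, per direction and comparison (at least 1 RPKM in 1 tissue), the markers and the most similar genes. Slc2a1, Irs3, Tbc1d1 and the immediate early genes were named after their values were seen. Some genes that this rule names are not reported here.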

Additional observations from a re-analysis of the deposited data

Results flagged for a closer look

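In a test of the highest and the lowest library of each tissue for each of the 10 genes, 1 of 30 groups of 6 libraries stood out, where chance gives about 1 in 20, or 1.5 groups. It was Foxo1 in BAT, where library 17 had 8.44 RPKM and the other 5 libraries 4.59 to 5.99. The gap was 0.636 of the whole range, just past Dixon's 95% critical value. Library 17 was also 1 of the 2 BAT libraries with few skeletal muscle transcripts (19.3 RPKM summed over the markers); the other, library 2, had 5.99 RPKM of Foxo1. The part of muscle in this value was not tested.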

How the results depend on the processing

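Counts of the 10 genes past the threshold stayed within 1.5 times under every alternative tried, and so did those of the pathway list and of all genes. Leaving out 1 library at a time, 354 values of the 10 genes and 3 comparisons kept their direction and side of the threshold, 4 passed it newly and 2 no longer did. Among the other settings, 253 did, 8 passed newly, 12 no longer did and 17 reversed. Reversals were between white adipocytes and BAT. Of the 17, 16 came under total counts alone, limma on log2(RPKM + 0.1) or limma on log2(RPKM + 1), none of which scales by TMM, and 1 with BAT libraries 2 and 17 alone. In that order, log2 fold changes of iWAT adipocytes against BAT were 0.67, 0.43 and 0.39 for Insr, 0.71, 0.44 and 0.30 for Irs1, and 0.27, 0.03 and 0.02 for Tbc1d4; Akt2 was 0.12 under total counts. Those of eWAT adipocytes against BAT were 0.47, 0.11 and 0.08 for Grb10, and under total counts 0.28 for Insr, 0.01 for Tbc1d4 and 0.27 for Foxo1. With BAT libraries 2 and 17 alone, a setting chosen after seeing the data, Akt1 was −0.10 in iWAT adipocytes and Grb10 in eWAT adipocytes was −0.40 (edgeR adjusted p = 0.13). In 1 fit of all 18 libraries, Irs2 between the white depots was 0.34 (edgeR adjusted p = 0.18). Insr in iWAT adipocytes against BAT passed the test without iWAT library 2 (−0.24, edgeR adjusted p = 0.044).

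With the title number as a replicate block, the same numbers of the 10 genes passed (10, 7 and 9), and 12836, 12555 and 15149 of all genes did, against 13454, 14864 and 16561. Libraries with the same number did not deviate together in every pair. Their correlations were −0.233 to 0.372 over 6 pairs of white depots, −0.141 to 0.098 over 4 pairs of iWAT adipocytes and BAT and −0.0352 to 0.0645 over 4 pairs of eWAT adipocytes and BAT. Of 12, 8 and 8 libraries with a partner, 2, 1 and 3 correlated best with their own number.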
